A study of Mus musculus with 12 samples.

Results

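The interferon receptor subunits are the 6 genes that encode the chains of the 3 interferon receptors, Ifnar1, Ifnar2, Ifngr1, Ifngr2, Ifnlr1 and Il10rb. They were taken by name, and all 6 were found among the 20432 genes of the deposited table and among the 12734 genes expressed highly enough to be tested. Poly(A) RNA was sequenced from 6 mouse pancreatic ductal adenocarcinoma lines, named 52205, 52419, 52424, 53105, 53369 and 53371. The Cre libraries come from these lines after infection with the retrovirus pBabe-Cre-puro and selection in puromycin at 2, 4 and 7 µg/ml, and their genotype is given as JAK1 Knockout. The parental libraries come from the same lines before infection, genotype Wildtype. Each line gave 1 library per condition, and all cells were grown in DMEM with 10% serum, with no added interferon named in the labels. Empty-vector cultures were not analysed here, so infection, selection and time in culture cannot be told apart from loss of JAK1. The labels do not say whether a Cre line is a clone or a pool, or whether the 6 lines come from separate tumours.

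Each interferon receptor pairs a chain that carries the kinase JAK1 with a partner chain that carries another Janus kinase. The type I receptor, for interferons alpha and beta, joins Ifnar2 (JAK1) to Ifnar1 (TYK2). The type II receptor, for interferon gamma, joins Ifngr1 (JAK1) to Ifngr2 (JAK2). The type III receptor, for interferon lambda, joins Ifnlr1 (JAK1) to Il10rb (TYK2), and Il10rb also serves the receptors for interleukins 10 and 22. The kinases phosphorylate STAT transcription factors, which enter the nucleus and induce the interferon-stimulated genes. Type I and II receptors are found on most cell types, while Ifnlr1 is known for its restriction to epithelia and a few leukocytes.

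The libraries held 11.5 to 18.0 M reads in genes (M, 1000000 reads), and the unit used below, CPM, is a read count per 1000000 of the scaled library size. Every subunit had reads in each of the 12 libraries, between 31 (Ifnlr1) and 4249 (Ifngr1). Jak1 itself averaged 168 ± 44.2 CPM in Cre and 170 ± 26.7 CPM in parental libraries (SD, n = 6 each), a log2 change of -0.04. The labels leave unsaid what exons are lost, so a gene total is no check of the deletion. In bulk RNA, fewer cells of a type and less RNA per cell cannot be told apart. Defining markers of leukocytes, endothelium and acinar cells summed to at most 26.5, 7.01 and 18.5 CPM in any library. Fibroblast markers did not stay low, and summed to 1284 CPM in Cre and 2180 CPM in parental 53369. The labelled duct origin was not equally visible in all lines, and those values stand with the differences between lines.

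Of the 6 subunits, 4 lie in a single cluster of 191 kb on chromosome 16 (GRCm38, RefSeq). In order these are Ifnar2 (91372783 to 91405589), Il10rb (91406157 to 91425834), Ifnar1 (91485032 to 91510523) and Ifngr2 (91547059 to 91564007). Ifngr1 lies on chromosome 10 (19591949 to 19610229) and Ifnlr1 on chromosome 4 (135686457 to 135708181). Between genes, levels were compared per kb of exon, with the exons of the GENCODE basic transcripts. Ifngr1 stood highest with a median of 59.9 CPM per kb over the 12 libraries, followed by Ifnar1 with 27.5, Il10rb with 21.9, Ifngr2 with 21.4, Ifnar2 with 11.3 and Ifnlr1 with 2.64. The low end of this order was steady and the rest was not. Ifngr2 was above Ifnar2 in 12 of 12 libraries and Ifnar2 above Ifnlr1 in 12 of 12. Ifngr1 was above Ifnar1 in 10 of 12, Ifnar1 above Il10rb in 6 of 12 and Il10rb above Ifngr2 in 5 of 12, so these neighbours did not separate beyond their spread. The ranks of Ifnar1, Ifngr2, Il10rb and Ifnar2 also depend on the exon set. With the comprehensive GENCODE exons the median of Ifnar1 was 18.1 CPM per kb, below that of Ifngr2 at 21.1, and the median of Il10rb was 10.6, close to that of Ifnar2 at 10.8.

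Cre and parental cells were compared to ask whether receptor transcripts change when JAK1 is deleted. None of the 6 subunits passed the test, and all 6 estimates lay slightly below 0, with log2 changes of -0.28 for Ifnar2, -0.26 for Ifnlr1, -0.16 for Ifngr1, -0.07 for Ifnar1, -0.07 for Il10rb and -0.06 for Ifngr2. The 95% confidence intervals placed the fold of Cre over parental between 0.646, the lower bound for Ifnlr1, and 1.18, the upper bound for Il10rb. Calls were made by limma at an adjusted p under 0.05 (Benjamini-Hochberg over all genes tested), with cell line as a block. By that rule 0.0236% of all genes (3 of 12734) were called, against 0 of 6 subunits. edgeR called 0.0393% of genes and DESeq2 2.12%, and each called 0 subunits. At an unadjusted limma p under 0.05, 15.1% of genes passed and 1 subunit did, Ifnar2. Estimates below 0 were found for 50.1% of all genes, and the median change over all genes was -0.00024. Because these genes share libraries, and 4 of them share a cluster, their 6 signs are not separate observations. The p-values measure only the spread between these libraries.

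**Figure D1:**
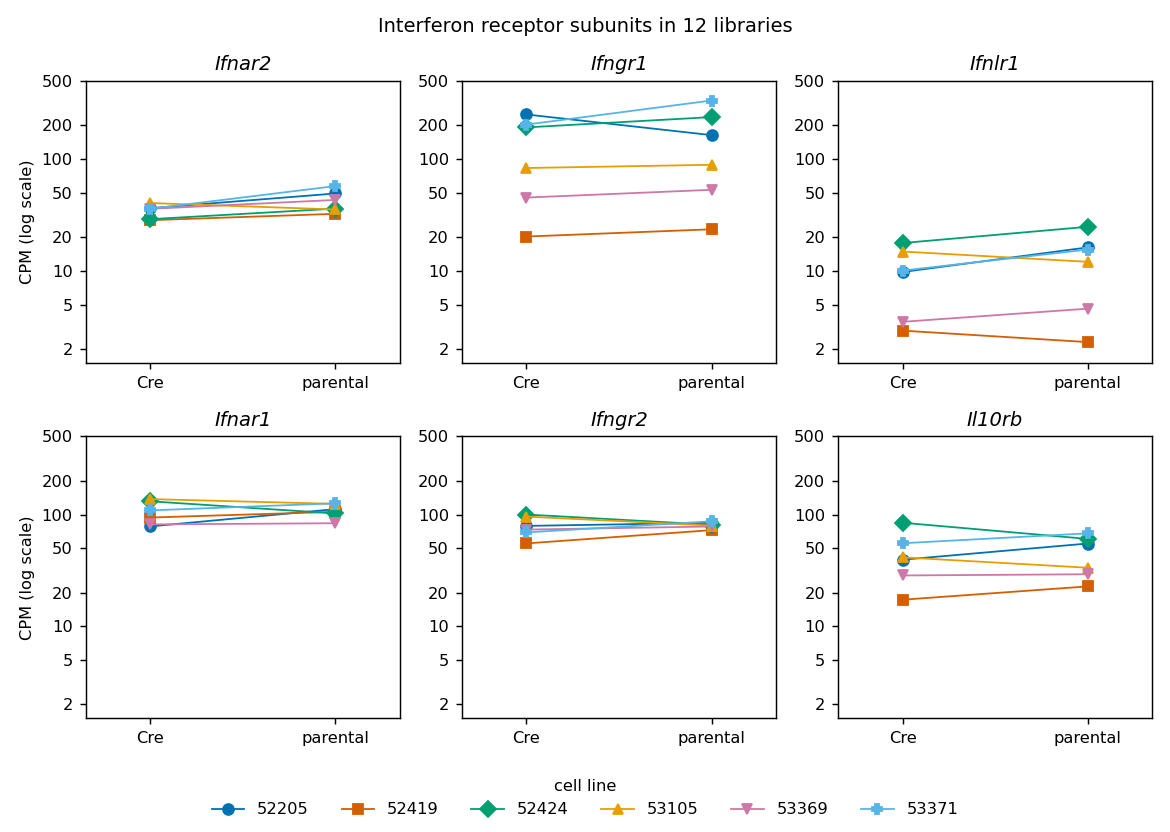
Level of each subunit in CPM (log axis) in the Cre library (left) and the parental library (right) of each cell line, with the 2 libraries of a line joined. The JAK1-binding chains fill the upper panels and their partner chains the lower ones. Ifngr1 spans 20.3 to 335 CPM and Ifnlr1 2.30 to 24.8 CPM, mostly between lines, while Ifngr2 stays between 55.2 and 100 CPM.

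Among the chains that carry JAK1, Ifnar2, the high-affinity chain of the type I receptor, had the smallest p of the 6 subunits. Its lowest, median and highest levels were 28.4, 35.9 and 40.5 CPM in Cre libraries, against 32.4, 39.6 and 57.4 CPM in parental libraries. The groups overlapped, with the highest level in parental 53371 and the lowest in Cre 52419. The log2 change was -0.28 (SE 0.11, 95% confidence interval -0.53 to -0.03), with limma adjusted p = 0.298 (Benjamini-Hochberg) and an exact sign-flip permutation p = 0.0938 over the 6 pairs, 2-sided, where 0.0313 is the smallest p possible. It was lower in 5 of 6 pairs, and 17.8% of all genes were lower in at least 5. No subunit was lower in 6 of 6 pairs (0 of 6), a pattern shown by 4.56% of all genes. Line 53105 was the exception, at 40.5 CPM in Cre and 35.4 CPM in parental cells. The largest decrease was in 53371, with 35.9 CPM in Cre and 57.4 CPM in parental cells.

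Ifnlr1, the ligand-specific chain of the interferon lambda receptor, was the lowest of the 6. It had 2.92, 9.91 and 17.7 CPM (lowest, median, highest) in Cre libraries, against 2.30, 13.8 and 24.8 CPM in parental libraries. The groups overlapped almost fully, and in each group 52419 was lowest and 52424 highest. The log2 change was -0.26 (SE 0.17, interval -0.63 to 0.12, limma adjusted p = 0.482, exact sign-flip permutation p = 0.188), lower in 4 of 6 pairs. Its depth was thin in the lowest line. In 52419 the change of 0.29 rests on 38 reads in the Cre and 31 in the parental library, with a counting error of 0.35 on the log2 scale. The changes were -0.70, -0.47 and -0.60 in 52205, 52424 and 53371, each from 1 library per condition.

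Ifngr1, the ligand-binding chain of the interferon gamma receptor, had pair differences of opposite sign in 52205 and 53371, each between single libraries. It had 20.3, 138 and 251 CPM in Cre libraries and 23.6, 127 and 335 CPM in parental libraries (lowest, median, highest), so the groups overlapped over nearly the whole range. The level was 204 CPM in Cre and 335 CPM in parental cells of 53371 (log2 change -0.71), but 251 CPM in Cre and 164 CPM in parental cells of 52205 (0.61). The counting errors were 0.037 and 0.041 on the log2 scale and cover the reads only, while the spread between cultures of a line was not measured. The mean log2 change was -0.16 (SE 0.14, interval -0.47 to 0.16, limma adjusted p = 0.614, exact sign-flip permutation p = 0.438), lower in 5 of 6 pairs. Without 52205 the estimate was -0.31 and without 53371 it was -0.05.

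The partner chains were closer to 0. Ifnar1, which brings TYK2 to the type I receptor, had 78.3, 102 and 138 CPM (lowest, median, highest) in Cre libraries, against 83.6, 109 and 126 CPM in parental libraries. Cre libraries held both the lowest level, in 52205, and the highest, in 53105. Its log2 change was -0.07 (SE 0.11, interval -0.31 to 0.17, limma adjusted p = 0.779, exact sign-flip permutation p = 0.531). Ifngr2, the chain that brings JAK2 to the type II receptor, had 55.2, 76.3 and 100 CPM in Cre libraries and 72.5, 80.4 and 87.0 CPM in parental libraries. The parental range lay wholly inside the Cre range. The log2 change was -0.06 (SE 0.11, interval -0.29 to 0.18, limma adjusted p = 0.828, exact sign-flip permutation p = 0.625). Il10rb, the chain shared by the lambda, IL-10 and IL-22 receptors, had 17.3, 40.4 and 84.5 CPM in Cre libraries and 22.7, 44.2 and 67.9 CPM in parental libraries. Here too the Cre range enclosed the parental one. The log2 change was -0.07 (SE 0.13, interval -0.37 to 0.23, limma adjusted p = 0.837, exact sign-flip permutation p = 0.688).

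The 3 partner genes had changes of the same sign as each other in each line, a pattern noticed after their values were seen and not tested. Ifnar1, Ifngr2 and Il10rb were all lower in Cre cells of 52205, 52419, 53369 and 53371 (4 lines) and all higher in Cre cells of 52424 and 53105 (2 lines). The sizes differed, and in 53369 the log2 changes were only -0.03 for Ifnar1, -0.09 for Ifngr2 and -0.04 for Il10rb. Line 52424 had the highest increases, at 0.36 for Ifnar1, 0.30 for Ifngr2 and 0.48 for Il10rb. In that line the JAK1-binding chains were lower, at -0.31 for Ifnar2, -0.31 for Ifngr1 and -0.47 for Ifnlr1. Ifnar2, the first gene of the same cluster, therefore did not follow its neighbours in 52424. Jak1 itself was higher in Cre cells of 52424, by 0.35 on the log2 scale.

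Line by line, 6 of 6 subunits were lower in Cre cells of 53369 and 53371, 5 in 52205 and 52419, 3 in 52424 and 1 in 53105. The share of all genes that were lower lay between 47.3% and 52.9% in every line. The median change of the subunits was -0.46 in 53371 and -0.45 in 52205, and 0.23 in 53105. Among the 3 JAK1-binding chains the median change was -0.26, and among the 3 partner chains it was -0.07.

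Receptor chains of other cytokines that signal through JAK1 gave a contrast within the same libraries. Of 16 genes on that list 7 were expressed highly enough to be tested, and 2 of the 7 passed limma, both lower in 6 of 6 pairs. Of all genes 0.0236% were called and 4.56% were lower in 6 of 6 pairs. The list was chosen with earlier results of these data known, so its count is a description. Osmr, a receptor chain for oncostatin M, had a log2 change of -2.21 (limma adjusted p = 0.0181, Benjamini-Hochberg). Il13ra1, which forms a receptor for interleukins 4 and 13, had a change of -1.38 (limma adjusted p = 0.0273). Both calls were lost without 52419, 52424 or 53369, without the filter on low genes and without the replicate block, where limma called 0 genes in the whole table. Without 53105 the call of Il13ra1 was lost too (limma adjusted p = 0.0868). With each pair left out, the estimates stayed between -2.38 and -2.07 for Osmr and between -1.49 and -1.26 for Il13ra1. Their intervals, -2.67 to -1.74 and -1.71 to -1.04, lie below the interval of every interferon receptor subunit. The difference between genes was not tested. Il4ra was at -0.55 (adjusted p = 0.177) and was called lower by DESeq2. Il11ra1 was at -0.25. The other members were between -0.14 (Lifr) and 0.04 (Il6ra), with Il6st, the shared chain gp130, at 0.0043.

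**Figure D2:**
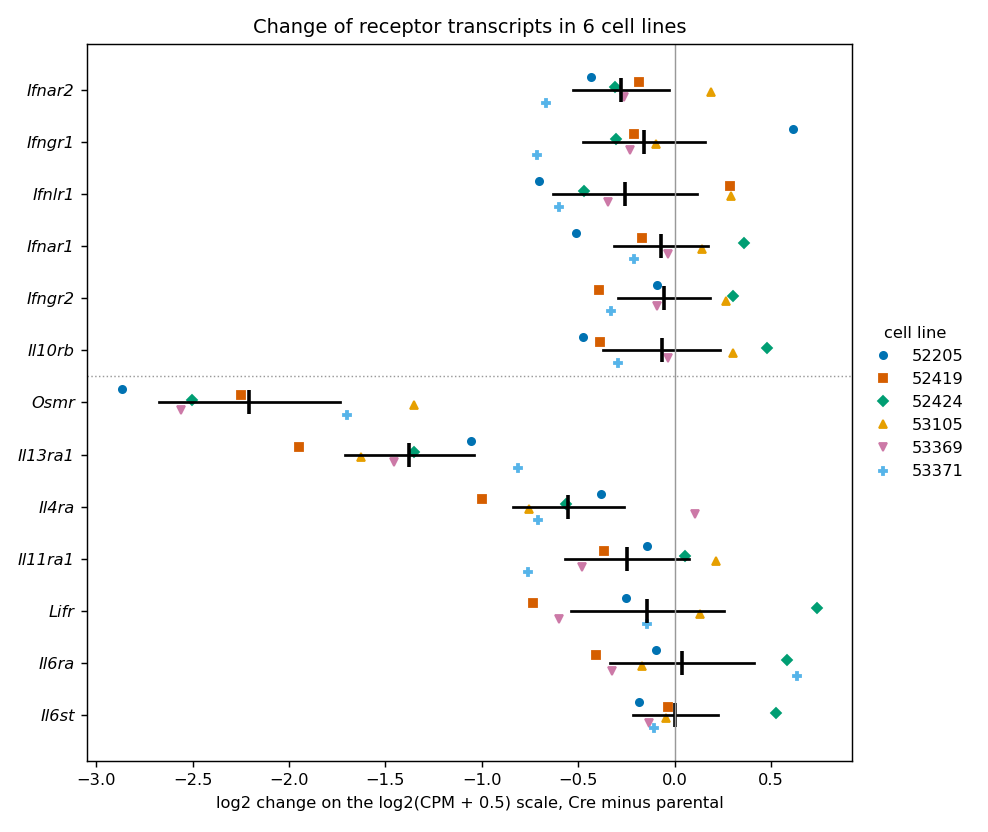
Log2 change of Cre over parental for the 6 interferon receptor subunits (above the dotted line) and the 7 tested receptor chains of other JAK1-coupled cytokines. Coloured symbols are the 6 cell lines, the black tick is the limma estimate and the black bar its 95% confidence interval. Osmr (-2.21) and Il13ra1 (-1.38) lie left of all 6 interferon receptor subunits.

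Differences between the cell lines were far larger than differences between Cre and parental cells for 3 subunits. Ifngr1, Ifnlr1 and Il10rb passed the moderated F-test of the line terms (limma, adjusted p under 0.05), which compares the spread between lines with the spread left within them. Of all genes 71.1% passed the same test, so 3 of 6 is no excess over the background, and 6 genes are too few to place them below it. The same 3 passed with edgeR, where 69.7% of genes passed, and with DESeq2, where 74.4% did. Their mean levels per line, on the log2(CPM + 0.5) scale, spanned 11.7-fold for Ifngr1, 6.94-fold for Ifnlr1 and 3.54-fold for Il10rb. The span of Ifngr1 was larger than that of 91.4% of genes, that of Ifnlr1 than 86.9% and that of Il10rb than 76.8%. Ifngr2 was among the steadier genes, with a span of 1.42-fold that exceeded only 12% of genes. Ifnar1 spanned 1.58-fold and Ifnar2 1.49-fold.

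Ifngr1 had the strongest line differences (limma adjusted p = 9.83e-06). Its levels in Cre and parental cells were 20.3 and 23.6 CPM in 52419, 45.3 and 53.2 CPM in 53369, and 83.3 and 89.0 CPM in 53105. In the other 3 lines they were 192 and 238 CPM in 52424, 204 and 335 CPM in 53371, and 251 and 164 CPM in 52205. The lower 3 lines did not overlap with each other or with the rest, whereas 52205, 52424 and 53371 overlapped. Ifnlr1 (limma adjusted p = 0.000154) had 2.92 and 2.30 CPM in Cre and parental cells of 52419, and 3.50 and 4.59 CPM in 53369. Its other 4 lines ran from 9.77 CPM in Cre 52205 to 24.8 CPM in parental 52424. Lines 52205, 53105 and 53371 overlapped, while 52424 lay above them. Il10rb (limma adjusted p = 0.000788) had 17.3 and 22.7 CPM in Cre and parental cells of 52419, and 28.5 and 29.2 CPM in 53369. All other libraries had at least 33.4 CPM, with the highest level, 84.5 CPM, in Cre 52424. For these 3 genes 52419 was therefore the lowest line and 53369 the next, in Cre and in parental cells alike.

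Ifnar1, Ifnar2 and Ifngr2 did not pass the line test, with limma adjusted p = 0.0657, 0.11 and 0.198. Neighbouring lines overlapped in all of their orders, save that 52419 had the lowest Ifngr2, at 55.2 CPM in Cre and 72.5 CPM in parental cells, below both libraries of 53369. Ifnar1 passed with library weights (adjusted p = 0.0101), without 52205 (0.0265) and without 52424 (0.0296). Ifnar2 passed without 53105 (limma adjusted p = 0.0459). The order of Ifnar1 did not follow that of the other genes, since 53105 was highest, at 138 CPM in Cre and 125 CPM in parental cells, and 53369 had the lowest mean of a line, at 81.6 and 83.6 CPM.

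The lines with low Ifngr1, Ifnlr1 and Il10rb were also those with the lowest levels of several duct and epithelial markers. Cdh1, which encodes E-cadherin, had 0.615 CPM in Cre and 0.372 CPM in parental cells of 52419, and 36.4 and 17.5 CPM in 53369, against 272 to 805 CPM in the other 8 libraries. Krt8, a keratin of simple epithelia, had 0.538 and 0.818 CPM in Cre and parental 52419. All 10 of the 10 duct markers examined were tested and all differed between lines, as did 71.1% of all genes tested. Their summed level was 4221 to 19499 CPM in Cre and 8853 to 26966 CPM in parental libraries, of which the secreted protein gene Spp1 made up most in 52419. By this sum parental 53369 was not low, at 19393 CPM, while Cre 53369 had 11876 CPM. The median parental log2 level of the 10 markers was 0.99 in 52419 and 5.53 in 53369, against 8.47 to 10.1 in the other lines. Sox9, a duct transcription factor, was not low in 52419, at 149 CPM in Cre and 171 CPM in parental cells, and Epcam was low in 53105 too, at 2.14 CPM in Cre and 1.99 CPM in parental cells. Fibroblast markers summed to 1284 CPM in Cre and 2180 CPM in parental 53369 and to 154 and 182 CPM in 52419, against 10.1 to 79.8 CPM elsewhere. The part of cell state or of other cells in the receptor differences was not tested.

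**Figure D3:**
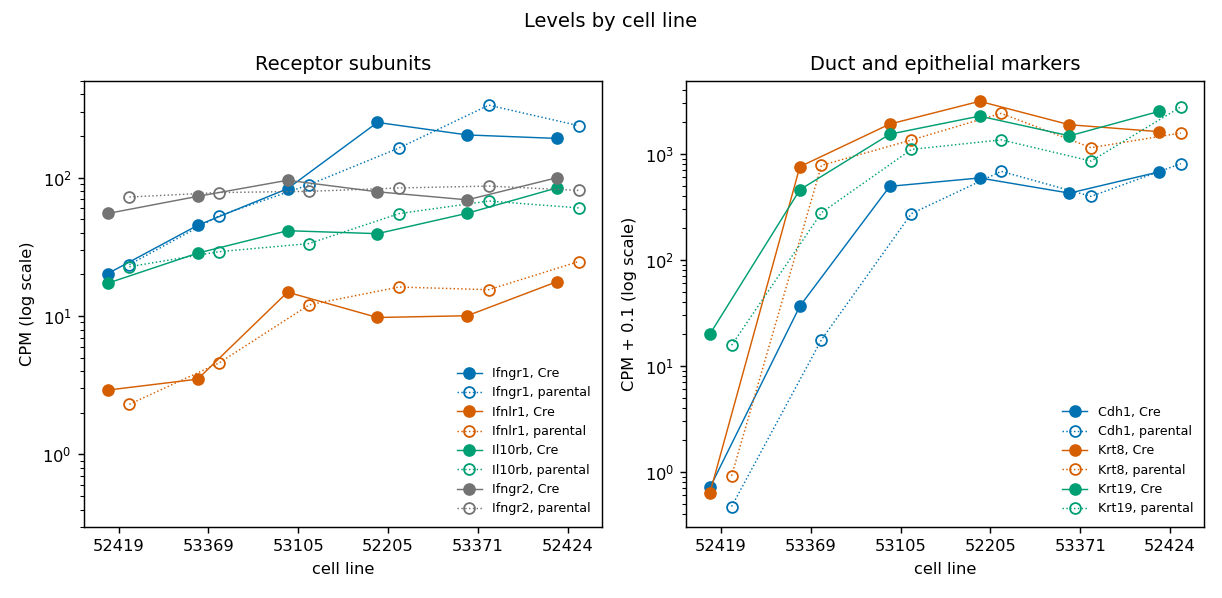
Levels by cell line on log axes, with Cre libraries as filled circles left of parental libraries as open circles, for 4 receptor subunits in CPM (left panel) and 3 duct and epithelial markers in CPM with 0.1 added (right panel). Lines are ordered by hand with 52419 and 53369 first. Ifngr1, Ifnlr1, Il10rb and the markers are lowest in these lines, while Ifngr2 stays between 55.2 and 100 CPM.

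The start-site regions of the chains are shown to compare genes that varied strongly between lines (Ifngr1, Ifnlr1) with the steadiest (Ifngr2) and with the gene of smallest p between Cre and parental cells (Ifnar2). RefSeq windows on GRCm38.p6, 250 bases before to 50 after the start site, matched 5 of the 6 genes, all but Il10rb. Each is on the plus strand, at chr10:19591699-19591998, chr4:135686207-135686506, chr16:91546809-91547108 and chr16:91372533-91372832. Capitals mark every match to the motifs searched, and adjacent matches run together.
Ifngr1 promoter: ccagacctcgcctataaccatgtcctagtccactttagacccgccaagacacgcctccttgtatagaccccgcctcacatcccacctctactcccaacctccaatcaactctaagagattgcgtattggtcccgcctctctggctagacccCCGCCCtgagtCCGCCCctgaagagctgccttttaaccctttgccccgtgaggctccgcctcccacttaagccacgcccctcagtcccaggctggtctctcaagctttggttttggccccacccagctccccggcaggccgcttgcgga
Ifnlr1 promoter: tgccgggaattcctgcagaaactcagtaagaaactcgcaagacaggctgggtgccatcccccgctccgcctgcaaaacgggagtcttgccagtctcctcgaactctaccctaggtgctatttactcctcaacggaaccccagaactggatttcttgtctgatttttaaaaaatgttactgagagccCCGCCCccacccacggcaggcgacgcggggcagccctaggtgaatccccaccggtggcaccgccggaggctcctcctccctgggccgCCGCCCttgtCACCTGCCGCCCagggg
Ifngr2 promoter: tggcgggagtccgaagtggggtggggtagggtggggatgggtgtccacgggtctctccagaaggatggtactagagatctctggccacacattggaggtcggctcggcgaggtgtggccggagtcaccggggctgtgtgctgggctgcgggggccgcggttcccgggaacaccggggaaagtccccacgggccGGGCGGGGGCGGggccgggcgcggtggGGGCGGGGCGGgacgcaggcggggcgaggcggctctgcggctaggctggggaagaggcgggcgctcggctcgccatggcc
Ifnar2 promoter: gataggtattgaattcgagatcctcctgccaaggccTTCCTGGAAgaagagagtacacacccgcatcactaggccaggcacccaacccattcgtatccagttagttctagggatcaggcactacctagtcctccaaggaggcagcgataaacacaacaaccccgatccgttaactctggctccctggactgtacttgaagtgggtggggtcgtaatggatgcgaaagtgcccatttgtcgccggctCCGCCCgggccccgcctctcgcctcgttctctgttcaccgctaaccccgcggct

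All 5 windows held a GC box (GGGCGG or CCGCCC), as did 35.6% of the 27025 mouse promoters searched in the same way on both strands. Ifngr2 held 4, of which the last 2 overlap by 1 base, Ifnar1 held 4, Ifnlr1 3, Ifngr1 2 and Ifnar2 1. The STAT-type palindrome GAS (TTCNNNGAA) was in the windows of Ifnar1, at -5, and Ifnar2, at -214 relative to the start site of the window, and in 8.37% of all promoters. The Ifnar1 window, chr16:91484965-91485264, is placed on a start site downstream of the gene start given above (91485032). Its GAS match therefore lies inside the gene span given above. The ISRE core (GAAA, any 2 bases, GAAA), the element of interferon-stimulated genes, matched none of the 5 and 3.52% of promoters. CAGGTG or CACCTG, the E-box that SNAI and ZEB repressors of epithelial genes can bind, was found in Ifnlr1 alone, at 33 after the start, touching a GC box, and in 20.03% of promoters. TATAAA or TTTATA was in none of the 5 and in 14.1%. The windows held 31 CpG in Ifngr2, 26 in Ifnar1, 18 in Ifnar2, 18 in Ifnlr1 and 14 in Ifngr1, against a median of 7 over all promoters. These matches describe letters only. In these 5 windows the variable genes and the steady one all had a GC box and no TATAAA.

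The balance of chains within a receptor was examined as the ratio of the JAK1-binding chain to its partner, per kb of basic exon. Ifnar2 was below Ifnar1 in all 12 libraries, at 0.272 to 0.572 (median 0.389) in Cre and 0.350 to 0.636 (median 0.488) in parental cells. Ifnlr1 was below Il10rb in all 12, at 0.0543 to 0.159 (median 0.0866) in Cre and 0.0448 to 0.181 (median 0.116) in parental cells. The type II receptor was the variable one. The ratio of Ifngr1 to Ifngr2 ran from 0.646 in 52419 to 5.57 in 52205 among Cre libraries, and from 0.570 in 52419 to 6.75 in 53371 among parental libraries, a span of 11.8-fold over the 12. Ifngr1 was below Ifngr2 in both libraries of 52419 and above it in the other 10. These ratios depend on the exon set. With comprehensive exons, an alternative chosen after seeing the data, the ratio of Ifnar2 to Ifnar1 was 0.394 to 0.829 in Cre and 0.507 to 0.921 in parental cells, and that of Ifnlr1 to Il10rb was 0.112 to 0.327 in Cre and 0.0922 to 0.373 in parental cells. Both stayed below 1 in 12 of 12 libraries. Ifngr1 was then below Ifngr2 in 4 libraries, those of 52419 and 53369, and above it in the other 8.

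None of the 3 ratios passed the test between Cre and parental cells. The log2 ratio changed by -0.21 ± 0.30 for Ifnar2 over Ifnar1, by -0.10 ± 0.48 for Ifngr1 over Ifngr2 and by -0.19 ± 0.53 for Ifnlr1 over Il10rb (SD over 6 pairs). The exact sign-flip permutation p was 0.219, 0.625 and 0.469, and 0.625 for each after Benjamini-Hochberg adjustment over the 3 ratios. The ratio was lower in Cre cells in 4, 4 and 5 of the 6 pairs. Line 52424 had the strongest decreases for the type I and III receptors, at -0.67 and -0.95. For Ifngr1 over Ifngr2 the lines disagreed, from 0.70 in 52205 to -0.61 in 52424. With each pair left out, the change ranged from -0.26 (without 52205) to -0.12 (without 52424) for Ifnar2 over Ifnar1 and from -0.26 (without 52205) to 0.00032 (without 52424) for Ifngr1 over Ifngr2. For Ifnlr1 over Il10rb it was -0.04 without 52424 and -0.36 without 52419. The value without 52419 has an exact sign-flip permutation p of 0.0625, the smallest that 5 pairs allow.

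**Figure D4:**
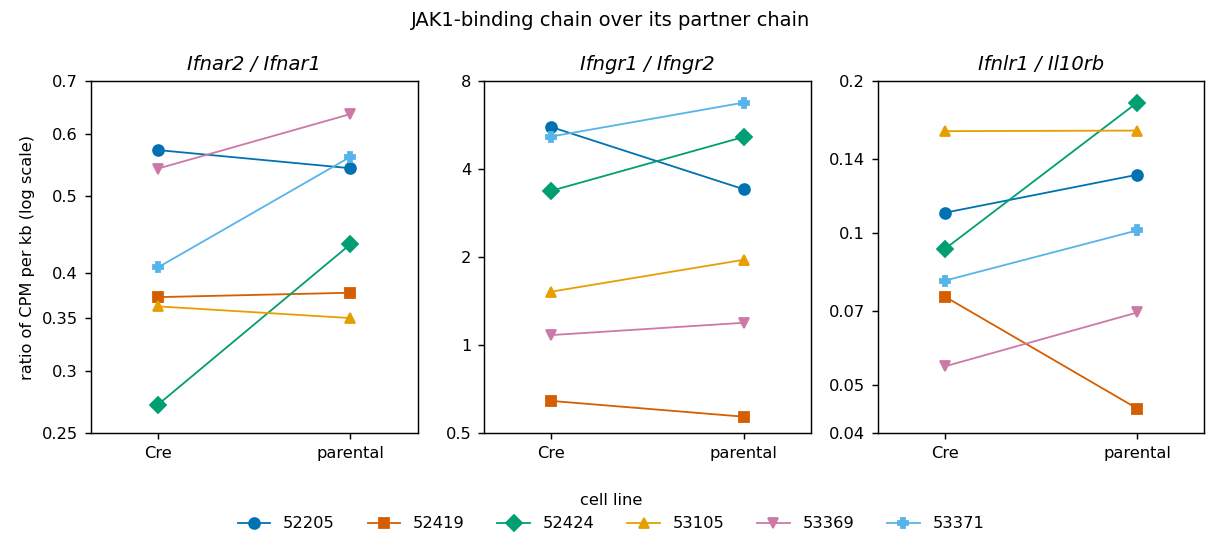
Ratio of the JAK1-binding chain to its partner chain in CPM per kb of basic exon (log axes with a separate scale in each panel), in the Cre library (left) and the parental library (right) of each line. The ratio of Ifngr1 to Ifngr2 spans 11.8-fold over the 12 libraries.

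Across the 12 libraries, which share 6 lines and are not independent, the log2 levels of the 3 line-variable genes went together. Pearson's r was 0.90 between Ifngr1 and Il10rb, 0.88 between Ifnlr1 and Il10rb and 0.87 between Ifngr1 and Ifnlr1, as a description. The chains of the type I receptor, Ifnar1 and Ifnar2, had r of 0.15 and those of the type II receptor, Ifngr1 and Ifngr2, 0.59. Even the closest subunit to Ifngr1, Il10rb, was only 400th of the 12734 genes by that measure. The 3 genes most like each subunit, by Pearson's r over the 12 libraries, were Cryl1, Tpd52l1 and Rsph9 for Ifngr1 (r 0.98 each), Cxadr, Susd1 and Sdr42e1 for Ifnlr1 (0.97 each), and Nelfb, Abca3 and Fam234a for Il10rb (0.97 each). For Ifnar2 they were Plscr3 (0.92), Ankrd24 (0.89) and Klhl26 (0.89), and for Ifngr2 Ucp2 (0.88), Dcaf5 (0.87) and Fbxl20 (0.87). For Ifnar1 they were Garem1 (0.95), Zbtb43 (0.91) and a gene without a symbol in the tables used (0.90). Cxadr, an epithelial junction protein, ran from 58.5 to 272 CPM in Cre and from 37.8 to 342 CPM in parental libraries.

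Around the chromosome 16 cluster, 23 other genes lie within 250 kb of a subunit, and 7 were expressed highly enough to be tested. Their median log2 change was -0.08, with 4 negative and 3 positive estimates, and limma called 0. At an unadjusted limma p under 0.05 there were 2, Cryzl1 (-0.22) and Donson (0.63), where 15.1% of all genes passed. Line differences passed for 3 of these 7, against 71.1% of all genes tested. Around Ifnlr1, 7 of 15 neighbours were tested and all 7 differed between lines, as did 71.1% of all genes tested, among them Il22ra1, which encodes the ligand-binding chain of the IL-22 receptor and lies 19.98 kb away. Il22ra1 had 0.845 and 1.04 CPM in Cre and parental 52419 and 1.07 and 0.841 CPM in 53369, against 17.0 to 61.3 CPM in the other 8 libraries. Its Pearson's r with Ifnlr1 over the 12 libraries was 0.89. Il22ra1 and Ifnlr1, which use the same partner Il10rb, were thus both lowest in 52419 and 53369. Beside Ifngr1, the related receptor gene Il22ra2 lies 11.8 kb away and was at 0 in 11 of 12 libraries, with 0.0743 CPM in parental 52419. Gm21970, annotated by GENCODE on the same strand, shares 9.46% of the exon bases of Ifnar2 and 14.9% of those of Il10rb, and how reads on shared bases were counted is not stated in the labels.

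Other genes of the class II cytokine receptor family were few in these cells. Besides the 6 subunits, 5 of 6 listed genes were in the table and 3 were tested. Il22ra1 had a log2 change of 0.18, Il20rb, a chain of the receptors for interleukins 19, 20 and 24, 0.17 and F3, the coagulation factor receptor known as tissue factor, 0.20. Limma called 0 of the 3 at adjusted p and 0 at an unadjusted p under 0.05, edgeR and DESeq2 called 0, and all 3 differed between lines, as did 71.1% of all genes tested. The IL-10-binding chain Il10ra was at 0 in the 6 Cre libraries and had at most 0.0861 CPM in any parental library.

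The ligands that could be read were nearly absent. Of 21 interferon genes listed 6 were in the table, and none reached the level for testing. Ifnb1 had 0 reads in the 6 Cre libraries and 3 in the 6 parental libraries together. The most reads were found for Ifnz, a type I interferon gene, with 22 in Cre and 7 in parental libraries. Of the ligands that use Il10rb, Il10 had 0 reads in Cre and 1 in parental libraries. The 6 interferon genes in the table were not detectable beyond such counts at this depth. For the listed genes without a row, the annotation and the counting of reads shared by similar genes are not known. Their absence was therefore not shown.

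Downstream of the receptors, the kinases and transcription factors of the pathway were expressed in every line. The 6 tested members had a median log2 change of -0.42, each estimate being negative, and limma called 0 at adjusted p, with 3 lower at an unadjusted p under 0.05. Of all genes, 50.1% had negative estimates and 8.18% were lower at an unadjusted limma p under 0.05. Irf9, a DNA-binding factor of the interferon response, was at -1.08, Stat2 at -0.58 and Jak2 at -0.26. Irf9 was lower in 6 of 6 pairs, as were 4.56% of all genes. edgeR called 0 and DESeq2 called Irf9 lower, where DESeq2 called 2.12% of all genes. Irf9 and Stat2 also belong to the interferon-stimulated genes below. Tyk2 was at -0.05, higher in Cre cells in 5 of 6 pairs, and turned to 0.05 without 52419. Without that line the median of the 6 was -0.20. Of 8 listed feedback regulators 6 were tested, and limma called 0, with a median of -0.09. Those too low in most libraries to be tested were lower in Cre than in parental cells of 52419 and are not in this median. Socs3, a STAT-induced inhibitor of Janus kinases, was at -0.77 (limma adjusted p = 0.154). Of the tested regulators 1 was lower at an unadjusted limma p under 0.05, against 8.18% of all genes. edgeR called 0 and DESeq2 1, against 2.12% of all genes by DESeq2. The other tested regulators ran from -0.14 for the phosphatase Ptpn6 to 0.09 for Ptpn1. The 10 genes for turnover and sorting of receptors included the ubiquitin ligase genes Btrc and Fbxw11 and the retromer gene Vps35. None was called by limma, edgeR or DESeq2. None passed at an unadjusted limma p under 0.05, where 15.1% of all genes did. Their median change was -0.04, from -0.14 for Rack1 to 0.14 for Vps35.

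The genes that interferons induce were set beside the receptors line by line. Of 28 tested interferon-stimulated genes 26 had negative estimates, against 50.1% of all genes, and the median log2 change was -0.60. Limma and edgeR called 0 and DESeq2 6, where DESeq2 called 2.12% of all genes. At an unadjusted limma p under 0.05, 14 were lower (8.18% of all genes were). Those with the smallest p were Ifitm3 (-0.95), Ifit1 (-1.15), Ifi27 (-1.32) and Irf9 (-1.08). Of 12 tested genes typical of interferon gamma 11 had estimates below 0, with a median of -0.33 and 4 lower at an unadjusted p under 0.05. Limma and edgeR called 0 of them and DESeq2 1. The shares of all genes to set beside these counts are those just given. Irf8 was at -1.09, Irgm2 at -0.98, Nlrc5 at -0.62 and Irf1 at -0.21. Without 52419 the medians, over the members still tested, were -0.27 and -0.22.

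The order of lines differed between receptors and induced genes. The median change of interferon-stimulated genes was -2.28 in 52419 and -0.77 in 53369, where the median change of the receptor subunits was -0.20 and -0.16. In 53371 and 52205 the subunits had medians of -0.46 and -0.45 and the interferon-stimulated genes of -0.06 and -0.20. Summed levels were taken over all 44 listed interferon-stimulated genes that were measured, while the medians cover only the 28 tested. In 52419 the sum was 443 CPM in Cre and 1619 CPM in parental cells, and in 53369 it was 679 and 1212 CPM. The other parental libraries had 702 to 882 CPM. The highest parental sums were thus found in the lines with the lowest Ifngr1, Ifnlr1 and Il10rb. In 53369 this order leans on Ifitm3, which made up 431 CPM of the parental sum, with 316 CPM in parental 52419. The other parental libraries had 0.375 to 90.6 CPM of Ifitm3. The median parental log2 level of the tested induced genes was 4.73 in 52419 and 4.29 in 53369, against 3.38 to 4.05 elsewhere. Ifnar1 in parental cells was at 106 CPM in 52419 and 83.6 CPM in 53369, and Ifnar2 at 32.4 and 43.1 CPM. No relation over the 6 lines was tested.

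**Figure D5:**
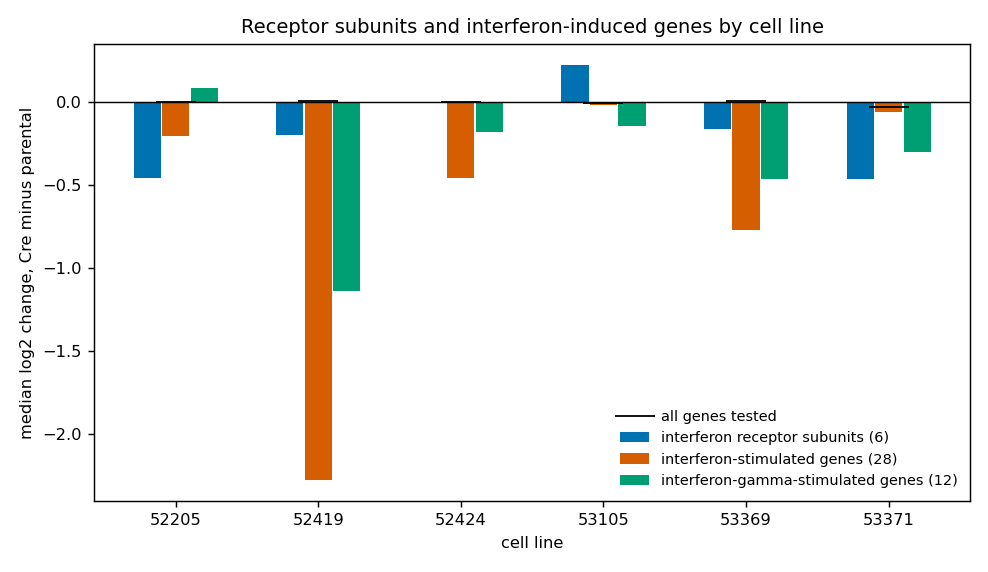
Median log2 change of Cre over parental in each cell line for the 6 interferon receptor subunits, 28 interferon-stimulated genes and 12 genes typical of interferon gamma, with black dashes for the median of all genes tested. The strongest decrease of induced genes is in 52419 (-2.28), where the subunits have a median of -0.20.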

How the data were processed

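Poly(A) RNA of 6 Cre and 6 parental libraries was analysed. Libraries were made from oligo(dT)-enriched mRNA with random hexamers, per the labels' protocols, which name no strand-marking step. Tools and builds in the submitters' processing notes are featureCounts, edgeR, FastQC 0.11.9, GRCm38 and mm10. An aligner and annotation are not given in the sources used. The deposited signal table holds normalised counts per 1000000 reads (CPM) for 20432 genes. In each library all signal values came out as whole reads of a fixed step (100% of values, tolerance 0.01 reads), so the read counts behind the authors' values were recovered. TMM factors recomputed from them matched the file to within 6.38e-09. A read was worth 0.0569 to 0.0896 CPM. The second deposited table holds the authors' log2 values for 10903 genes, the 6 subunits included, and was used as an alternative.

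Symbols came from RefSeq (19448 genes) and GENCODE (11), and 973 genes stayed unnamed. Genes at or above 1 CPM in at least 6 libraries (12734) were fitted as log2(CPM + 0.5) with limma-trend (R 4.3.3, limma 3.58.1), 2-sided, blocked on cell line. This scale understates changes of low genes. The block rests on the series design of isogenic pairs, and 12 of 12 libraries correlated best with the other library of their line (0.73 to 0.95 within pairs). Single values were also given an exact sign-flip permutation test over pairs. edgeR 4.0.16 and DESeq2 1.42.0 were run on the recovered reads. The script was tested on simulated data. Exon lengths came from GENCODE. Figures were drawn with matplotlib 3.10.9.

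Members and gene lists were chosen with earlier results of these data known. The lists were the class II cytokine receptor family, interferon and Il10rb ligands, kinases and factors, feedback regulators, receptor turnover, interferon-stimulated and interferon-gamma-stimulated genes, other JAK1-coupled receptors, and duct, leukocyte, fibroblast, endothelial and acinar markers. By rule, the genes named were the members, the measured genes of the smaller lists, the 4 with the smallest p of the 3 larger lists, the 3 most correlated genes per member and neighbours within 250 kb. Cxadr and the markers were described after their values were seen. Values of some single genes are not reported here, while counts and medians of lists include them.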

Additional observations from a re-analysis of the deposited data

How the results depend on the processing

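The 6 subunits were refitted under 17 alternatives each, and 0 of these 102 changes were called. The smallest limma adjusted p was 0.200 (Ifnar2). The estimates of Ifnar2 (-0.37 to -0.20 with each pair left out), Ifnlr1 (-0.37 to -0.17) and Ifngr1 (-0.31 to -0.05) kept their sign under all 17. The estimates near 0 turned when a pair was left out, with ranges of -0.16 to 0.018 for Ifnar1 (above 0 without 52205), -0.13 to 0.011 for Ifngr2 (without 52419) and -0.18 to 0.014 for Il10rb (without 52205). The change in the ratio of Ifngr1 to Ifngr2 ranged from -0.26 to 0.00032 (without 52424), of Ifnar2 to Ifnar1 from -0.26 to -0.12 and of Ifnlr1 to Il10rb from -0.36 to -0.04.

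Among all genes, limma called 3, 34 with library weights, 0 without the filter on low levels and 0 to 5 with each pair left out. edgeR called 5 and DESeq2 270. Without the replicate block, limma called 0 genes and the paired estimates of the subunits were unchanged by construction. Of the interferon-stimulated genes, library weights called 1 and DESeq2 6. Line differences were called for 3 subunits, or 4 with library weights or without 52205, 52424 or 53105. The cause of these shifts was not tested, beyond fewer pairs where one was left out. Depth limits Ifnlr1 in 52419 and the ligands, and 1 library per line and condition leaves no replicate within a line.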
